A study of Rattus norvegicus with 2 samples.

Results

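The genes described here are 10 genes of lysophospholipid signalling, taken by their symbols from a table of 17455 genes: the sphingosine 1-phosphate (S1P) receptor genes S1pr1, S1pr2, S1pr3 and S1pr5, the lysophosphatidic acid (LPA) receptor genes Lpar1, Lpar4 and Lpar6, and the enzyme genes Enpp2, Plpp3 and Sphk2. All 10 were found, and all 10 reached the floor of a mean of 1 TPM (transcripts per 1000000) over both libraries, as did 13175 of the 17455 genes. S1pr5 passed that floor through the Slit1 library. RNA was sequenced from wild-type rat OPCs (oligodendrocyte precursor cells), glial cells of the central nervous system that divide and can mature into the oligodendrocytes that make myelin. The Slit1 group was transfected with a Slit1 construct and the control group with the vector, both with a Lonza kit. Slit1 encodes a secreted ligand of the Robo receptors. Each group had 1 library, so no difference has a replicate check and no p-value was computed. The sources used here do not give the age and strain of the rats, the promoter of the construct or the time from transfection to harvest.

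S1P and LPA are small signalling lipids that act outside cells through G protein-coupled receptors. S1P is made inside cells by the sphingosine kinases Sphk1 and Sphk2 and carried out by transporters such as Spns2, while most extracellular LPA is released from lysophosphatidylcholine by autotaxin, the secreted enzyme that Enpp2 encodes. Plpp3 encodes a lipid phosphate phosphatase that removes the phosphate from both lipids at the cell surface. In the oligodendrocyte lineage, S1pr5 and Lpar1 are known as receptors of maturing cells, and Enpp2 is known to be made by differentiating oligodendrocytes.

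The Slit1 library held 18998770 and the control library 18817462 estimated counts. Slit1 itself was at 229.7 TPM in the Slit1 library and 1.70 TPM in the control library, which fits the labels. The cells carried lineage markers such as Olig1 (686 TPM in Slit1, 730 TPM in control) and Pdgfra (41.4 TPM in Slit1, 40.2 TPM in control). Astrocyte markers were abundant in both libraries: the 9 listed genes summed to 9418 TPM in Slit1 and 8358 TPM in control, 8 of them passed the floor, and Gfap alone was at 6130 TPM in Slit1 and 4694 TPM in control. The 8 listed lineage markers summed to 1909 TPM in Slit1 and 1992 TPM in control, but 2 of them were at least 1.5-fold higher in Slit1: Sox10 (218.03 TPM in Slit1, 71.4 TPM in control) and Vcan (40.05 TPM in Slit1, 22.7 TPM in control). Ptprz1, the most abundant of them, had a ratio of 0.753. The 11 oligodendrocyte markers measured of 12 listed summed to 5011 TPM in Slit1 and 1292 TPM in control, and the 10 above the floor were at least 1.5-fold higher in Slit1. That count is partly set by the floor, which Mog (1.93 TPM in Slit1, 0.15 TPM in control) passed through the Slit1 library and Mobp (0.44 TPM in Slit1, 0.28 TPM in control) did not reach. The defining microglial genes Aif1 and Csf1r were at no more than 0.50 TPM in either library and the defining endothelial genes Cdh5 and Cldn5 at no more than 0.08 TPM. Of the other endothelial markers, Flt1 was at 2.25 TPM in Slit1 and 4.51 TPM in control and Kdr at 0.80 TPM in Slit1 and 0.24 TPM in control. Summed over each list, the microglial markers came to 1.42 TPM in Slit1 and 1.11 TPM in control (5 of 9 measured), the endothelial ones to 3.63 TPM in Slit1 and 5.27 TPM in control (6 of 7), the mural and fibroblast ones to 22.4 TPM in Slit1 and 23.3 TPM in control (6 of 8), and the neuronal ones to 179 TPM in Slit1 and 144 TPM in control (9 of 9). Gap43 (101.1 TPM in Slit1, 77.0 TPM in control) and Tubb3 (46.5 TPM in Slit1, 33.6 TPM in control) made up most of the neuronal sum. Stmn2 and Gad1 were also higher in Slit1, while Rbfox3, Snap25, Syt1, Nefl and Slc17a7 were lower. Of the 8 neuronal markers above the floor, 0 were at least 1.5-fold higher and 1 lower, with a median log2 difference of 0.002. In a bulk sample, fewer cells of a type and less RNA per cell cannot be told apart.

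RefSeq promoter sequence was matched by gene number for 8 of the 10 genes; Enpp2 and Lpar1 were not among them. The 250 bases before the annotated start are shown for S1pr5 and Lpar6, which had the largest differences among the 10 genes, and for S1pr3 and S1pr1, the most abundant receptor genes. Sequences are from assembly GRCr8 and run 5′ to 3′ on the strand of the gene. Capitals mark matches on either strand to letters known to be bound by factors of the lineage or by TEAD factors: ACAAAG and ACAAT (Sox), CTGGNAC (Myrf), CAGCTG (an E-box) and GGAATG (TEAD). No match overlaps another in these 4 windows.
S1pr5, GRCr8 chr8:28067870-28068119, minus strand: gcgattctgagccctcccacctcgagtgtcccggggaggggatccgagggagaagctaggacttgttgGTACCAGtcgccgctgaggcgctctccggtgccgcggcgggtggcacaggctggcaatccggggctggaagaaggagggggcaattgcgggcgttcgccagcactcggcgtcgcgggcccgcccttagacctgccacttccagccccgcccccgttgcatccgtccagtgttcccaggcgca
Lpar6, GRCr8 chr15:54825860-54826109, plus strand: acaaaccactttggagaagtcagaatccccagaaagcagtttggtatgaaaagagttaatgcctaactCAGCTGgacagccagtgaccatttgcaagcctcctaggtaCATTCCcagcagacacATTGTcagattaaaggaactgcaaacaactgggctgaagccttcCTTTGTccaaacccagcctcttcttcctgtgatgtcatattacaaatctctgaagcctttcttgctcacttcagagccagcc
S1pr3, GRCr8 chr17:13946014-13946263, minus strand: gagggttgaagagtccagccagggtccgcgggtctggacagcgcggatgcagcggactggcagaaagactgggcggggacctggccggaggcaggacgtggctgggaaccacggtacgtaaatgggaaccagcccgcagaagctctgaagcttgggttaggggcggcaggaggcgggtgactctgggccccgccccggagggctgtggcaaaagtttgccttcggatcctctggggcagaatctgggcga
S1pr1, GRCr8 chr2:206314071-206314320, minus strand: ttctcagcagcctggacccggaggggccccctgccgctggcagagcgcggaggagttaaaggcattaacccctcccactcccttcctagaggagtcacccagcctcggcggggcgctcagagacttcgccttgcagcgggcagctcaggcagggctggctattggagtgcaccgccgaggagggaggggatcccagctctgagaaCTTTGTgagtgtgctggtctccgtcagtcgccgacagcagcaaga
The S1pr5 window is rich in G and C (69.2%) and holds 24 CpG dinucleotides, while the Lpar6 window is 46% G and C and holds 0; the median over the promoters of genes above the floor was 59.6% and 16 CpG. The S1pr5 window has 1 match to CTGGNAC, ending 176 bases before the start, and 14.9% of the 12277 promoters of genes above the floor hold these letters. The Lpar6 window holds CAGCTG (11.9% of those promoters), GGAATG (9.70%), ACAAT (18.7%) and ACAAAG (11.7%) once each. The S1pr1 window has 1 match to ACAAAG, 40 bases before the start, and the S1pr3 window has no match. A match describes the letters in the window, not binding.

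S1pr5 and Enpp2 were higher and Lpar6 was lower in the Slit1 library by at least 1.5-fold on the log2(TPM + 1) scale, a scale that understates the change of scarce genes. The other 7 genes lay between these limits. Of all 13175 genes above the floor, 3.72% were higher and 4.83% lower by this amount, 8.55% in either direction. The 3 called of 10 members are given beside that share, which is no test of them. The members and the gene lists below were chosen with earlier results of these data known, and S1pr5 passed the floor through the Slit1 library. The median log2 difference, Slit1 minus control, was -0.09 over the 10 genes and -0.05 over all genes above the floor. Among scarce genes (mean 1 to 5 TPM, where S1pr5, Lpar4 and Lpar6 lie) 6.97% of 2110 genes were higher and 8.01% lower. With the median gene set to 0, 54.3% of all called genes were higher, against 43.5% without that centring, and the same 3 members were called. Ratios below are ratios of TPM with a 95% interval for counting error, which says nothing of the spread between cultures.

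**Figure D1:**
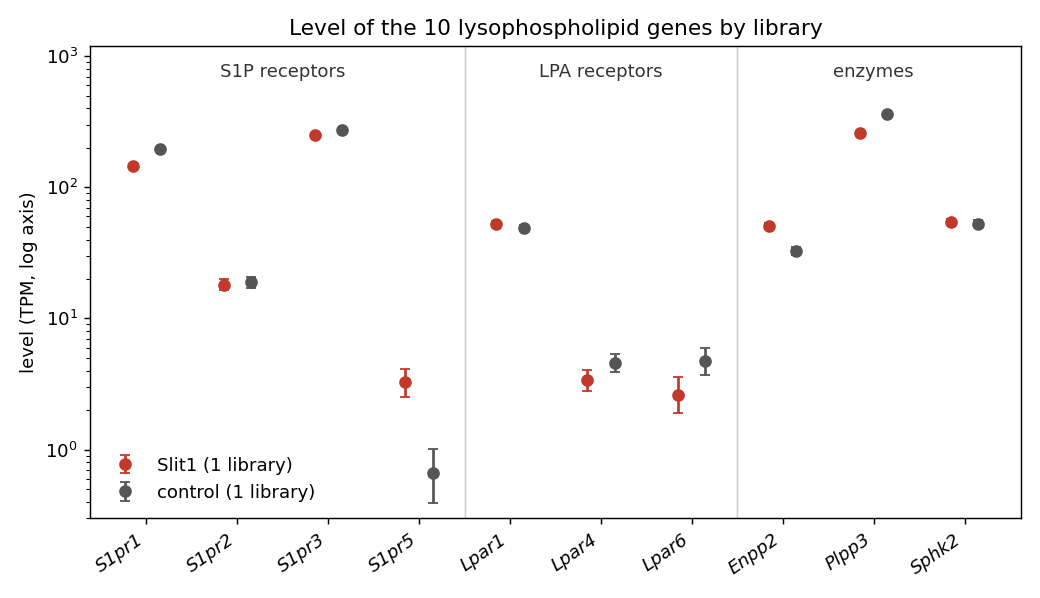
Level of each of the 10 genes in TPM on a log axis, with Slit1 (red) left of control (grey), 1 library each; bars are 95% counting intervals. Levels run from 0.66 TPM for S1pr5 in control to 364 TPM for Plpp3 in control, and the groups stand furthest apart at S1pr5.

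The S1P receptor genes included the most abundant receptor gene of the set and, in control, the scarcest. S1pr3, whose receptor couples to several classes of G protein, was at 250.02 TPM in Slit1 (7991 estimated counts) and 273 TPM in control (8374 counts). The ratio was 0.916 (interval 0.888 to 0.945), a small difference that lies beyond counting error and inside the 1.5-fold limits. Its difference of log2(TPM + 1) was -0.13, or -0.08 with the median gene set to 0. Of the genes above the floor, 39.3% were at least as far down as S1pr3. S1pr1, whose receptor couples to Gi, was at 144.95 TPM in Slit1 (3411 counts) and 195.5 TPM in control (4389 counts), a ratio of 0.741 (interval 0.709 to 0.775). For S1pr1, 10.4% of genes above the floor were at least as far down. S1pr2, whose receptor acts mainly through G12/13, differed by less than counting error, with 18.1 TPM in Slit1 (439 counts) and 18.9 TPM in control (440 counts) and a ratio of 0.959 (interval 0.838 to 1.10).

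S1pr5 was the member that differed most. It was at 3.25 TPM in Slit1 (72.2 counts) and 0.66 TPM in control (19.4 counts), a ratio of 4.92 (interval 2.99 to 8.80). Its difference of log2(TPM + 1) was 1.36, and 0.607% of all genes above the floor were at least as far in that direction. That share is no test of S1pr5, which passed the floor through the Slit1 library. It also pools genes of all levels, and scarce genes were called more often, as given above. The ratio of the estimated counts was smaller, 3.72 (interval 2.26 to 6.65). Counts and FPKM together imply a gene length of 2.47 kb for S1pr5 in Slit1 and 3.43 kb in control. Of 13146 genes with at least 0.2 FPKM in both libraries, 0.251% had length estimates at least that far apart, and 88.8% had estimates within 5% of each other. S1pr5 thus rests on few counts and on a length estimate that differed between the libraries, whose part in the ratio was not tested beyond the count ratio given here. The oligodendrocyte markers given above were higher in the same library, and their part in the S1pr5 difference was not tested.

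S1pr3 and S1pr1 made up most of the S1P receptor transcripts in both libraries. The 4 genes summed to 416 TPM in Slit1 and 488 TPM in control. S1pr3 made up 60.1% of this sum in Slit1 and 55.9% in control, and S1pr1 34.8% in Slit1 and 40.1% in control. S1pr2 held 4.35% in Slit1 and 3.87% in control. S1pr5 held 0.781% of the sum in Slit1 and 0.135% in control, so it remained the scarcest S1P receptor gene measured in both. S1pr4 was not analysed here.

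Lpar1 was the main LPA receptor gene in both libraries. Its receptor belongs to the same receptor family as the S1P receptors. It was at 52.9 TPM in Slit1 (1553 counts) and 49.2 TPM in control (1393 counts), a ratio of 1.07 (interval 0.999 to 1.16) whose interval includes 1. The ratio of the estimated counts of Lpar1 was 1.12, with an interval (1.04 to 1.20) that does not include 1. Lpar4 and Lpar6 encode LPA receptors of a separate, P2Y-like branch. Lpar4 was at 3.39 TPM in Slit1 (118 counts) and 4.57 TPM in control (158 counts), a ratio of 0.742 (interval 0.578 to 0.945). Lpar6 was at 2.62 TPM in Slit1 (41.5 counts) and 4.73 TPM in control (72 counts), 1.81-fold lower (interval 1.20 to 2.68). The counting intervals of both P2Y-like receptor genes lay on the lower side of an equal level, and both intervals cross the 1.5-fold limit. Lpar6 was past that limit, but its interval includes smaller differences, while Lpar4 was inside the limit and its interval includes larger ones.

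Lpar6 lies within Rb1, the retinoblastoma gene, on the opposite strand in the RefSeq annotation. Rb1 was at 41.4 TPM in Slit1 and 53.8 TPM in control (ratio 0.769, interval 0.721 to 0.819). The sources used here do not say how strand was handled, so reads of the 2 genes may not be told apart, and the part of Rb1 reads in the Lpar6 values was not tested.

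The 3 LPA receptor genes summed to 58.9 TPM in Slit1 and 58.5 TPM in control. Lpar1 made up 89.8% of the sum in Slit1 and 84.1% in control. The share of Lpar6 was 4.45% in Slit1 and 8.08% in control, and that of Lpar4 was 5.75% in Slit1 and 7.81% in control. The remaining receptor genes of the family, Lpar2, Lpar3 and Lpar5, were each at no more than 0.45 TPM and 9 counts in either library and did not reach the floor.

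**Figure D2:**
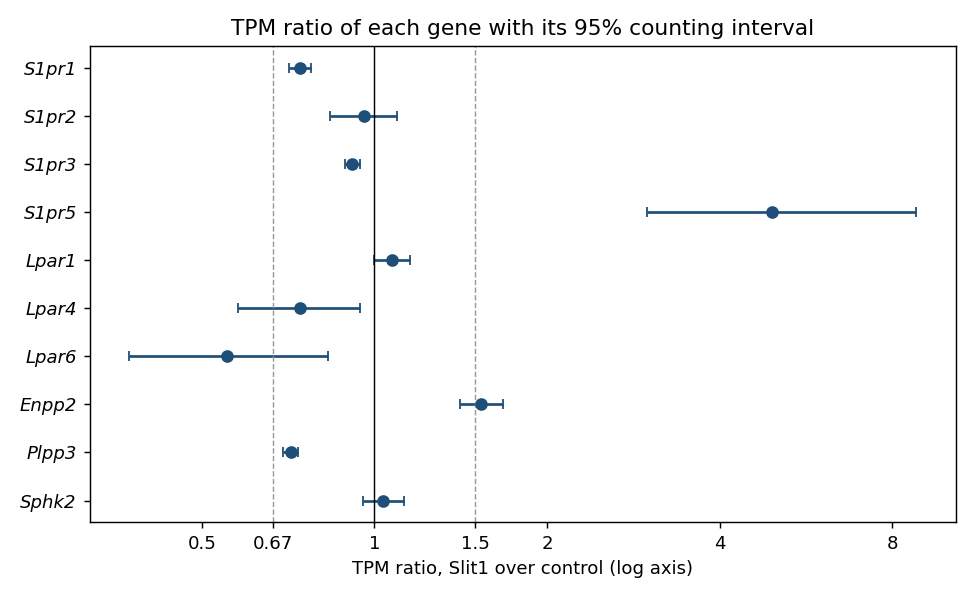
TPM ratio of each gene, Slit1 over control, on a log axis with its 95% counting interval; the solid line is a ratio of 1 and the dashed lines are 1.5-fold in either direction. S1pr5 lies wholly beyond 1.5-fold (interval 2.99 to 8.80). Enpp2 (1.41 to 1.67), Lpar4 (0.578 to 0.945) and Lpar6 (0.373 to 0.831) straddle the limit, and S1pr2, Lpar1 and Sphk2 include 1.

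Among the enzymes, the gene of LPA-producing autotaxin was higher in Slit1, and the other 2 genes were not past the limit in either direction. Enpp2 was at 50.5 TPM in Slit1 (1426 counts) and 32.8 TPM in control (897 counts), a ratio of 1.54 (interval 1.41 to 1.67). Its difference of log2(TPM + 1) was 0.61, just past the limit of 0.58, and 3.48% of genes above the floor were at least as far in that direction. The part of the oligodendrocyte markers, higher in the same library, in the Enpp2 difference was not tested. Plpp3, the most abundant of the 10 genes, was at 260.2 TPM in Slit1 (7101 counts) and 364 TPM in control (9546 counts), a ratio of 0.715 (interval 0.693 to 0.737). That interval lies below 1 and inside the 1.5-fold limit. For Plpp3, 7.81% of genes above the floor were at least as far down. Sphk2, the sphingosine kinase found largely in the nucleus and on internal membranes, was at 54.7 TPM in Slit1 (1220 counts) and 52.8 TPM in control (1150 counts), a ratio of 1.04 (interval 0.955 to 1.12).

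Plpp3, S1pr3 and S1pr1 are also known as genes of astrocytes, and the astrocyte markers did not move as 1 group. Of the 8 above the floor, 0 were at least 1.5-fold higher and 2 lower: Slc1a2 at 94.1 TPM in Slit1 and 215 TPM in control, and Gja1 at 296 TPM in Slit1 and 506 TPM in control. Gfap had a ratio of 1.31, and the median log2 difference of the 8 markers was -0.07. The part of astrocytes in the levels of Plpp3, S1pr1 and S1pr3 was not tested.

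The order of the 10 genes by TPM was nearly the same in both libraries. In control it ran Plpp3, S1pr3, S1pr1, Sphk2, Lpar1, Enpp2, S1pr2, Lpar6, Lpar4 and S1pr5. There, only the neighbours Sphk2 and Lpar1, and Lpar6 and Lpar4, had counting intervals that overlapped. In Slit1 the first 7 genes kept these places, but Plpp3 and S1pr3 had overlapping intervals, as had Sphk2, Lpar1 and Enpp2 from one to the next. The last 3 places were Lpar4, S1pr5 and Lpar6, and each overlapped the next. Plpp3 had a higher level than 95.2% of genes above the floor in Slit1 and 96.9% in control, while S1pr5 exceeded 11.6% of them in Slit1 and 0.273% in control. The place of S1pr5 in control is partly set by the floor, which it passed through the Slit1 library.

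**Figure D3:**
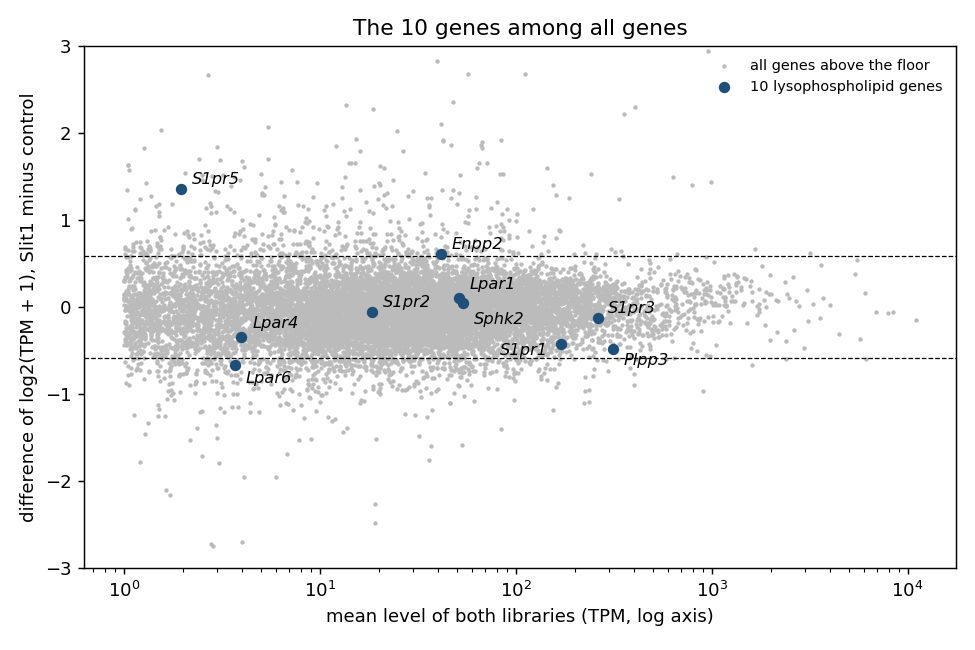
Difference of log2(TPM + 1), Slit1 minus control, against the mean level of both libraries in TPM on a log axis; grey points are the genes above the floor, blue points the 10 lysophospholipid genes and dashed lines 1.5-fold, and 9 genes lie outside the vertical axis. S1pr5 (1.36) stands clear of the dense cloud, Enpp2 (0.61) and Lpar6 (-0.66) sit at its edges and the other 7 genes lie between the dashed lines.

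The rest of the S1P pathway was described from a list of 12 genes for synthesis, breakdown and transport, of which 8 passed the floor, 1 was higher and 1 lower (all genes: 3.72% higher, 4.83% lower). Spns2, the S1P exporter, was at 11.3 TPM in Slit1 (339 counts) and 3.13 TPM in control (93.8 counts), with a ratio interval of 2.85 to 4.57. Asah2, a neutral ceramidase and 1 of several enzymes that release sphingosine, was at 1.37 TPM in Slit1 (62.9 counts) and 3.30 TPM in control (152 counts). The far more abundant ceramidase gene Asah1 was at 144.9 TPM in Slit1 and 196.2 TPM in control, inside the 1.5-fold limit. The other kinase gene, Sphk1, was at 4.90 TPM in Slit1 and 6.93 TPM in control, and the lyase gene Sgpl1, whose enzyme breaks S1P down irreversibly, at 98.4 TPM in Slit1 and 107 TPM in control. The 7 genes other than Spns2 had log2 differences below 0, 6 of them inside the 1.5-fold limit. The median log2 difference over all 8 genes, Spns2 included, was -0.35.

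The LPA enzymes other than Enpp2 showed no member past the limit. Of 12 listed, 9 passed the floor, 0 were higher and 0 lower. Among all genes above the floor 3.72% were higher and 4.83% lower, 8.55% in either direction, so 0 of 9 does not set this list apart. The median log2 difference of the 9 genes was -0.09. The widest difference was that of Agpat5, an acyltransferase of the family that turns LPA into phosphatidic acid, at 38.2 TPM in Slit1 and 55.8 TPM in control (-0.53 on the log2 scale). Agpat4 was next, at 87.0 TPM in Slit1 and 101.5 TPM in control. Liph, whose enzyme can make LPA from phosphatidic acid, was at 9.92 TPM in Slit1 and 10.3 TPM in control.

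Of 10 lipid phosphate phosphatases and relatives other than Plpp3, all 10 passed the floor, 2 were higher and 0 lower (all genes: 3.72% higher, 4.83% lower). Both belong to the Plppr proteins, brain-enriched membrane proteins that resemble the phosphatases but lack their activity. Plppr5 was at 78.1 TPM in Slit1 (2396 counts) and 45.4 TPM in control (1330 counts), and Plppr3 at 7.75 TPM in Slit1 (165 counts) and 4.82 TPM in control (98.6 counts). The phosphatase gene closest to Plpp3 in level, Plpp1, was at 246.8 TPM in Slit1 and 257 TPM in control, with a ratio interval of 0.912 to 1.01. Over all the listed genes of these pathways, their G proteins and their targets, 5 of the 55 above the floor were higher (9.09%) and 3 lower (5.45%), with a median log2 difference of -0.12. Among all genes above the floor these shares were 3.72% and 4.83%, and the number lower was 2 of the listed genes with the median gene set to 0, with TMM factors, in counts per 1000000 and in FPKM.

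**Figure D4:**
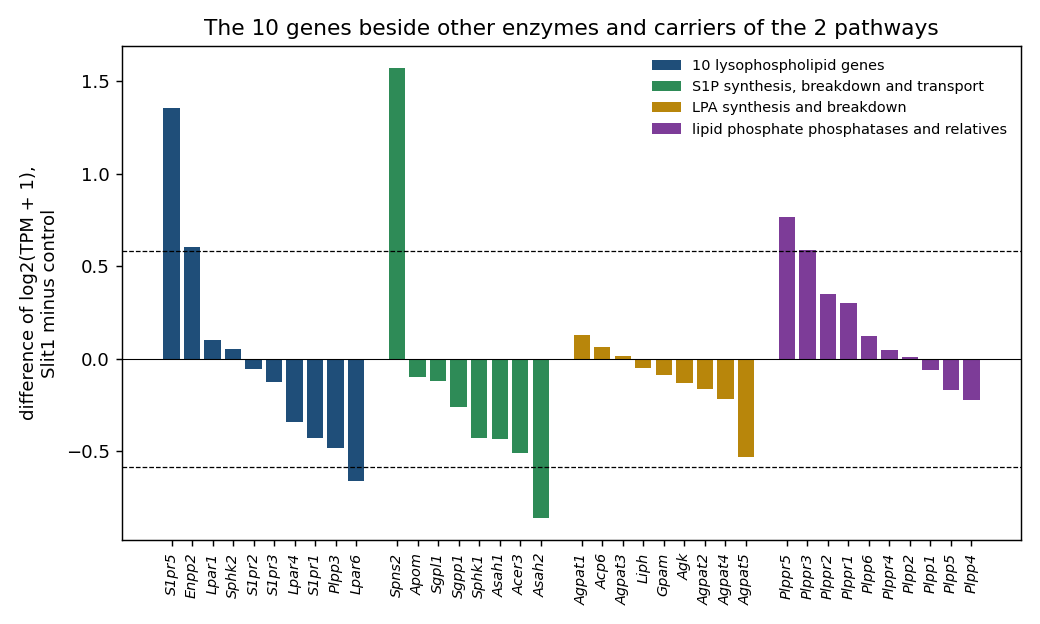
Difference of log2(TPM + 1), Slit1 minus control, for the 10 genes and for 27 other genes of the pathways above the floor, in order of value within each list; dashed lines are 1.5-fold. Spns2 (1.57) and S1pr5 (1.36) are the tallest bars, and all but Spns2 of the S1P list lie below 0.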

How the data were processed

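The authors deposited 1 table that gives FPKM, TPM and estimated read counts, per the file headers, for every gene. The TPM values deposited by the authors sum to 1000000 per library. The estimated counts deposited by the authors need not be whole, and were rounded for intervals and TMM factors. Per the submitters' processing notes the build was mRatBN7.2. Aligner, counter, annotation and strand handling: not given in the sources used here. Value columns of other samples numbered 0.

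For each gene log2(TPM + 1) in control was subtracted from that in Slit1, and genes averaging under 1 TPM were left out; a gene was called at 1.5-fold. With 1 library per group no test was possible. Ratios carry exact 95% intervals (Clopper-Pearson, on the share of both Poisson counts), scaled to TPM, and levels an exact Poisson interval; both cover counting error only. At a gene of median length a count of 0 allows 3 counts, or 0.132 TPM in Slit1 and 0.137 TPM in control. The calculation was tested on simulated data. The members and gene lists were chosen with earlier results of these data known. Every member is named. Also named are the genes above the floor of each list past 1.5-fold, or at least the 2 furthest from 0. A few others (Sphk1, Sgpl1, Asah1, Liph, Plpp1, Enpp5, Gnai2, Gna12 and Rb1) were chosen after their values were seen. The members of 1 list are counted but not reported here. Gene numbers were matched to RefSeq (assembly GRCr8) for names, neighbours and promoters. As alternatives, the pseudocount was 0.1 or 5, the floor 0 or 5 TPM and the limit 2-fold or an interval wholly beyond 1.5-fold, and values were centred on the median gene, scaled by edgeR TMM factors or by library totals, or taken as FPKM. Python 3.11.15, SciPy 1.17.1, R 4.3.3 and edgeR 4.0.16 were used.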

Additional observations from a re-analysis of the deposited data

How the results depend on the processing

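No paired analysis was possible because each group had 1 library; for the same reason no replicate could be left out. The sign of the difference was the same for all 10 genes under the 6 alternatives of pseudocount and scaling. A change of pseudocount cannot alter a sign, so only the changes of scaling bear on it. S1pr2 came nearest to a change of sign, from -0.058 to -0.005 with TMM factors. Of the 60 values, 51 lay within counting error of the reported one. The counts of called members (2 higher, 1 lower) rest on scarce genes and on a gene near the limit. With a pseudocount of 5, 0 were higher and 0 lower. With a floor of 5 TPM, which leaves 7 members, Enpp2 was higher (1) and 0 were lower. At that floor 343 of all 11065 genes were higher and 468 lower. With FPKM, where S1pr5 misses the floor, 1 member was again higher and 0 lower. In FPKM 405 of all 12250 genes above the floor were higher and 342 lower. With a 2-fold limit, or with intervals wholly beyond 1.5-fold, S1pr5 alone of the members was higher (1) and 0 were lower. With edgeR TMM factors 2 members were higher and 0 lower. Of all 13261 genes above the floor with these factors, 536 were higher and 464 lower. Of the pathway genes (5 higher, 3 lower), 1 was lower with a pseudocount of 5, and 3 were higher and 0 lower at 2-fold. Of all 13175 genes (490 higher, 637 lower), 258 were higher and 277 lower with a pseudocount of 5. Of the same genes, 164 were higher and 85 lower at 2-fold, and 259 and 252 with intervals beyond 1.5-fold. The share of called genes that were higher was 43.5%, against 54.3% with the median gene set to 0, 53.6% with TMM factors and 54.2% in FPKM. The fitted difference of S1pr5 ran from 0.54 to 2.14 with the pseudocount.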

Other observations

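Among the G proteins through which these receptors signal, 2 of 7 genes were lower and 0 higher in Slit1, where 4.83% of all genes above the floor were lower and 3.72% higher. Gna13, a G protein of the G12/13 class, was at 24.5 TPM in Slit1 (244 counts) and 49.6 TPM in control (476 counts), with a ratio interval of 0.420 to 0.576. Gnai1, an inhibitory G protein, was at 25.6 TPM in Slit1 and 39.3 TPM in control (interval 0.599 to 0.710); its estimated counts had a ratio of 0.780 (interval 0.716 to 0.850), inside the 1.5-fold limit, as was its log2 difference with the median gene set to 0 (-0.55). Its relative Gnai2, the most abundant of the 7, was at 785.6 TPM in Slit1 and 756 TPM in control, and Gna12 at 368 TPM in Slit1 and 322 TPM in control.

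Of the 8 target genes of SRF and YAP above the floor, 1 was higher and 0 lower (all genes: 3.72% higher, 4.83% lower). Tagln, an actin-binding protein gene, was at 79.9 TPM in Slit1 (721 counts) and 36.2 TPM in control (314 counts), with a ratio interval of 1.93 to 2.53, while Ccn1 was at 13.1 TPM in Slit1 and 19.1 TPM in control. Among the relatives of Enpp2, 1 of 4 above the floor was higher (all genes: 3.72%). It was Enpp6, one of the oligodendrocyte markers, whose enzyme cleaves choline lipids, at 81.2 TPM in Slit1 and 15.02 TPM in control. Enpp5 was at 71.9 TPM in Slit1 and 67.2 TPM in control. None of the 8 listed receptors for other lysophospholipids or protons reached the floor in these libraries: their levels were at most 0.52 TPM and 17.3 counts.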
